A study of Homo sapiens with 16 samples.

Results

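Knockdown of PNPase was compared with knockdown of SUV3 on day 3, the earliest day sampled, in OCI-AML2 cells. OCI-AML2 is an established human acute myeloid leukaemia line. The comparison used the 4 day 3 samples of 16 in the series, chosen by their labels: PNPase replicates 545 and 1717 and SUV3 replicates 1595 and 1727. Both groups carried short hairpin RNA, against PNPase (PNPT1) in one and against SUV3 (SUPV3L1) in the other, and all cells grew in Iscove's modified Dulbecco's medium with serum, penicillin and streptomycin. Per the design text the replicates of a knockdown are biological replicates, and each was sampled on days 3, 4, 5 and 6. The labels do not explain the replicate numbers, so hairpin and culture cannot be told apart.

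PNPase is a 3′ to 5′ exoribonuclease and SUV3 an RNA helicase, and inside mitochondria they act together to degrade RNA, including the double-stranded RNA that arises when both strands of the mitochondrial genome are transcribed. Double-stranded RNA that reaches the cytosol can be bound by the sensor MDA5, encoded by IFIH1. MDA5 signals to the interferon and NF-kappaB pathways, whose target genes are well represented on immune panels. Control cells were not analysed here, so that a gene lower after PNPase knockdown than after SUV3 knockdown may have moved in either group, and these cannot be told apart. The transcripts of PNPT1 and SUPV3L1 were not analysed here, and how far each knockdown reached was not checked.

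RNA was measured on a NanoString immunology panel, in which each target RNA binds a fluorescently barcoded probe and barcodes are counted. The table held 594 genes, of which 15 were housekeeping genes, with 8 negative and 6 positive control probes. Totals over all genes ran from 311396 to 397448 on day 3 and up to 493370 over the series. Each sample was divided by the geometric mean of its housekeeping genes, and log2(value + 1) was taken; on this scale folds of weak genes are understated. The negative probes averaged 6.16 with an SD of 2.60 on day 3, and 358 genes had a mean deposited value above 11.4, the mean plus 2 SD. EGR2 lay just above that limit with a mean of 11.5, and CEACAM1 just below it with 11.25. All 11 measured myeloid markers were above the limit, with summed deposited values of 5642 to 7359 after PNPase knockdown and 4194 to 6371 after SUV3 knockdown. All 10 T cell markers, among them CD3D and CD3E, were below it, with sums of 43 to 47 in all 4 samples. The progenitor markers CD34 and KIT were also below it, 4 of 7 B cell markers were above it, PAX5 and BLNK among them, and of 7 NK cell markers PRF1 alone was above it.

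The positive controls, spiked RNAs that do not come from the cells, differed between the knockdowns. Their log2 factor was 0.13 and 0.29 in the PNPase samples and -0.11 and -0.26 in the SUV3 samples, without overlap. The housekeeping factors overlapped, at -0.10 and -0.51 against -0.50 and -0.27. Without scaling the median difference of all 594 genes was -0.01, with housekeeping scaling -0.08, with positive control scaling -0.39 and with median ratio scaling 0.05. The share of the positive control difference in the gene differences was not tested, and results that hold under all 4 scalings are named as such. Among the 15 housekeeping genes themselves 7 did not overlap between the knockdowns, of which OAZ1, PPIA and TUBB were higher and ABCF1, ALAS1, POLR1B and POLR2A lower after PNPase knockdown.

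Among the 358 genes, 149 had PNPase values that did not overlap the SUV3 values, which was 41.6% of them. Both PNPase values lay below both SUV3 values for 105 genes (29.3%) and above them for 44 genes (12.3%). This choice used the day 3 values, so the values of these genes are a description. The median difference was -0.55 on the log2 scale among the 105 lower genes and 0.44 among the 44 higher genes, and 12 and 7 of them were past 2-fold. The gap between the groups ran from 1.96 for MX1 to 0.0054 for ATG12 among lower genes, and from 0.93 for CCND3 to 0.00085 for PYCARD among higher genes. BATF3, with a gap of -0.00081, was the overlapping gene nearest to separation. All 4 values were above the negative control limit for 97 of the lower and 39 of the higher genes.

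No gene passed limma's test of PNPase against SUV3 knockdown on day 3 (Benjamini-Hochberg adjusted p under 0.05 over all 594 genes, 0.0% called), and 26 genes (4.38%) had an unadjusted p under 0.05, 17 lower and 9 higher after PNPase knockdown. The smallest adjusted p in limma was 0.705, for MX1. With 2 samples against 2, an exact two-sided permutation test of 1 gene cannot go below 0.333. Replicates of 1 knockdown differed by about as much as the knockdown means did. A mean of 2 samples varies less than 1 sample, so these differences are not like for like. The median absolute log2 difference over the 358 genes was 0.29 between the PNPase replicates, 0.39 between the SUV3 replicates and 0.31 between the knockdown means. More genes were over 2-fold apart between the SUV3 replicates (64) than between the PNPase replicates (23) or between the knockdown means (20).

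The interferon-stimulated genes had the lowest median PNPase minus SUV3 difference of the 11 gene lists. Of 13 members above the negative controls, 11 were lower without overlap and none was higher, against 29.3% lower among all genes. They included MX1, IRF7, STAT2, IFI35, BST2, IFIH1, IFITM1, IFI16, IRF1 and SOCS1. None passed the test. The median difference of the 13 was -0.93, beside -0.11 for the 358 genes. The count of 11 was 9 without scaling and 11 under the other scalings, and the median ran from -1.24 with positive control scaling to -0.79 with median ratio scaling. In bulk RNA, fewer cells expressing a gene and less of its RNA in each cell cannot be told apart.

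Promoters of 2 of these genes are shown because they hold the interferon-stimulated response element, the motif bound by a transcription factor complex that holds STAT2 and IRF9. IFIH1 also joins the sensor of double-stranded RNA to this group, and BST2 encodes tetherin, which holds budding viruses on the cell surface. Both promoters run from 250 bases before to 50 after the gene's start on the minus strand of GRCh38.p14, from RefSeq, at chr19:17405581-17405880 for BST2 and chr2:162318635-162318934 for IFIH1. Capitals mark matches on either strand to GAAA and GAAA separated by 2 bases of any kind, of which BST2 has 2 that overlap each other and IFIH1 has 3.
BST2: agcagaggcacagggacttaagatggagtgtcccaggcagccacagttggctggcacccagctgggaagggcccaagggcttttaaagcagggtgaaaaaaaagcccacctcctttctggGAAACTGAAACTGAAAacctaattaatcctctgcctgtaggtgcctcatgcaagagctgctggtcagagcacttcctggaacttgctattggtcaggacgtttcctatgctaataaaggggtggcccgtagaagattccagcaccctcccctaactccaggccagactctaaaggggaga
IFIH1: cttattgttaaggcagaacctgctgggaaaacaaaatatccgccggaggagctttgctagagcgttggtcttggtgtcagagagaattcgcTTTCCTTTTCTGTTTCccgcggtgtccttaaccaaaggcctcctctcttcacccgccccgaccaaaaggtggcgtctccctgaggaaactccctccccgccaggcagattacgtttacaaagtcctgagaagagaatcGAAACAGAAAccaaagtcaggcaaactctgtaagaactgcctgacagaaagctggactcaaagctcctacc
The motif occurred in 3.57% of 35116 RefSeq promoters and in 45 of the 441 panel genes with a promoter in the table (10.2%). It was present for 13 of 83 genes lower after PNPase knockdown (15.7%) and for 3 of 38 higher genes (7.89%). A match is a description of the letters and does not show binding.

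MX1, a GTPase that blocks replication of many viruses, had deposited values of 67 and 31 after PNPase knockdown and of 200 and 460 after SUV3 knockdown. Both SUV3 samples were far above both PNPase samples, and SUV3 1727 was the highest of the 4. The log2 difference was -2.79 ± 0.48 (SE, n = 2 per knockdown), or 6.90-fold, the largest on the panel among the 358 genes.

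IRF7, the transcription factor that amplifies interferon production, had values of 25 and 40 against 82 and 159. STAT2, a transcription factor switched on by interferon receptors, had 244 and 136 against 384 and 405. Both genes were separated, with differences of -1.90 ± 0.50 for IRF7 and -1.19 ± 0.36 for STAT2, each with an adjusted p of 0.810 in limma.

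BST2 had values of 242 and 128 against 251 and 420, and a difference of -0.96 ± 0.39. PNPase 545 and SUV3 1595 lay close together before scaling. IFIH1 had 59 and 31 against 55 and 110, so that the deposited values overlapped and the groups separated after housekeeping scaling by a gap of 0.29, with a difference of -0.93 ± 0.43. IFI35 and IFI16, both induced by interferon, had differences of -0.97 ± 0.40 and -0.88 ± 0.36. IFIT2, which binds foreign RNA, overlapped, with 18 and 13 against 9 and 47.

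**Figure D1:**
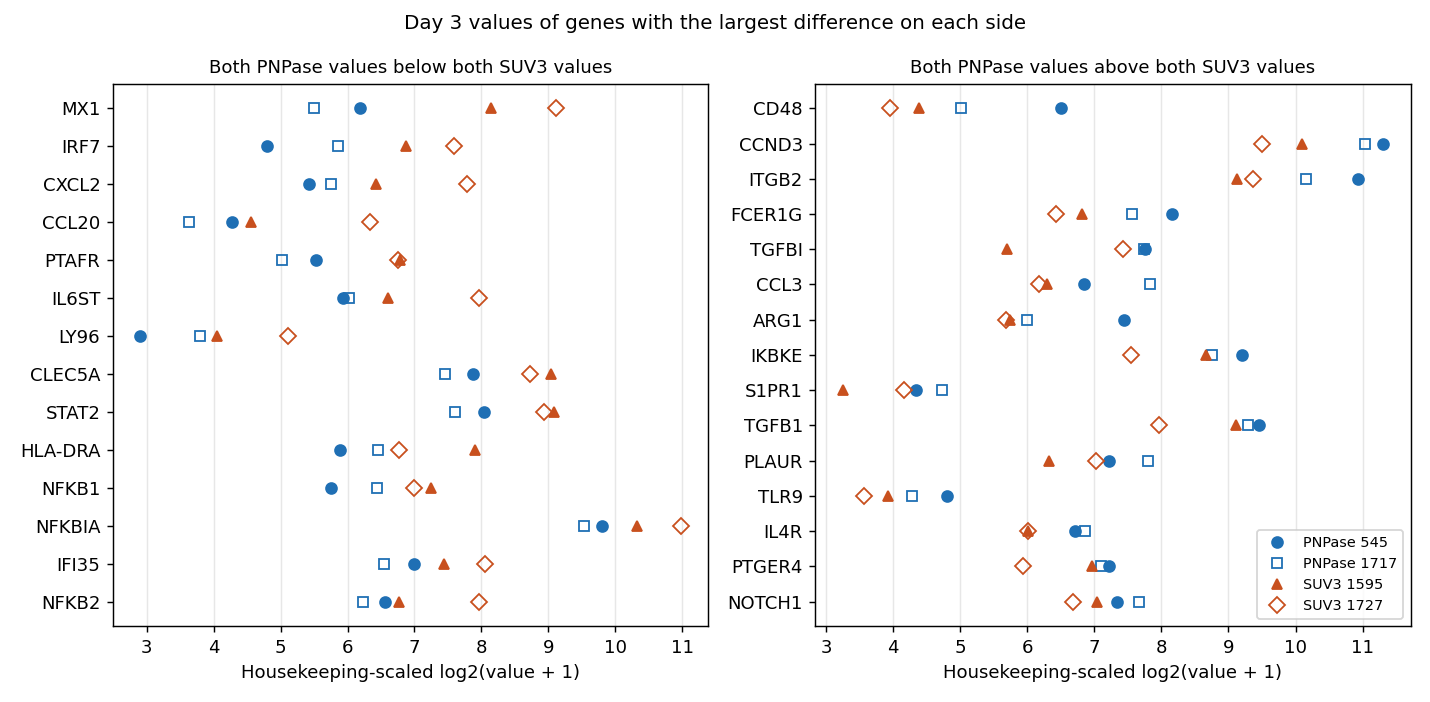
Housekeeping-scaled log2(value + 1) of each of the 4 day 3 samples for genes among the 15 with the largest PNPase minus SUV3 difference on each side, blue for PNPase and red for SUV3 replicates. MX1 shows the widest gap (1.96), while NFKB2 and TGFB1 have 1 SUV3 replicate close to the PNPase values.

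The sensors and adaptors of foreign nucleic acid showed values in both directions. Of 14 members above the negative controls, 9 were lower and 2 higher without overlap, beside 29.3% and 12.3% of all genes, and none passed the test. The kinase TBK1, which activates the interferon transcription factors, had 386 and 280 against 401 and 442, a difference of -0.43 ± 0.33. TLR3, the endosomal receptor for double-stranded RNA, had 19 and 15 against 21 and 30. TMEM173, which encodes the DNA pathway adaptor STING, had 1432 and 1201 against 1727 and 1453, with a gap of 0.03 after scaling. The higher members were TLR9 and IKBKE. IKBKE, a kinase related to TBK1, had 547 and 303 against 287 and 155, a difference of 0.87 ± 0.49, and this separation was lost with positive control scaling.

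Of the MHC class II genes, which present extracellular peptides to helper T cells, 4 of 11 members were lower and 2 higher without overlap, shares near the 29.3% and 12.3% of all genes, and the others overlapped. The lower members were the presenting chains HLA-DRA, HLA-DRB1, HLA-DRB3 and HLA-DPA1. The higher members were CD74, the chaperone called the invariant chain, and CTSS, the protease that removes it. None passed the test, and the median over the 11 was -0.19. HLA-DRA had values of 54 and 61 against 169 and 90, and HLA-DPA1 had 35 and 22 against 58 and 45. Both were low in the 2 PNPase samples, with differences of -1.17 ± 0.50 and -0.94 ± 0.38. The near-identical HLA-DRB genes share sequence, so that their probes may not separate them. CD74 had 1028 and 843 against 713 and 682. The higher values of CD74 and CTSS were not held under positive control scaling, where no member of the list was higher without overlap.

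In MHC class I presentation, 2 of 12 members were higher and 1 lower without overlap, beside 12.3% and 29.3% of all genes, and none passed the test. Of these, PSMB9 and PSMB10, subunits of the immunoproteasome, were higher and PSMB7, a subunit of the standard proteasome, was lower. The median difference was 0.04 and turned to -0.28 with positive control scaling, beside -0.11 and -0.42 for the 358 genes. HLA-B overlapped, with deposited values of 4196 and 3770 against 3140 and 4514, as did B2M, the shared light chain, with 12263 and 9052 against 8786 and 14743.

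The NF-kappaB subunits and regulators were lower in 11 of 24 members without overlap and higher in 1, IKBKE, beside 29.3% and 12.3% of all genes. The median difference was -0.27, and 20 of the 24 differences were negative, beside 217 of the 358 genes. Without scaling 16 were negative, beside 192 of the 358 genes, and with median ratio scaling 16, beside 177. The lower count was 7 without scaling, 15 with positive control scaling and 8 with median ratio scaling. Of the 358 genes, 60, 149 and 75 were lower without overlap under those scalings. None of the 24 passed the test. The 2 promoters that follow are shown because NFKBIA, the inhibitor that holds NF-kappaB in the cytosol, and CXCL2, a neutrophil chemokine, are textbook NF-kappaB targets and were lower after PNPase knockdown. They run over the same distances as above on the minus strand of GRCh38.p14, from RefSeq, at chr14:35404700-35404999 for NFKBIA and chr4:74099146-74099445 for CXCL2, with matches to the kappaB motif, GGGA and TTCC separated by 2 bases of any kind, on either strand in capitals. NFKBIA has 1 match, and CXCL2 has 2 that overlap each other.
NFKBIA: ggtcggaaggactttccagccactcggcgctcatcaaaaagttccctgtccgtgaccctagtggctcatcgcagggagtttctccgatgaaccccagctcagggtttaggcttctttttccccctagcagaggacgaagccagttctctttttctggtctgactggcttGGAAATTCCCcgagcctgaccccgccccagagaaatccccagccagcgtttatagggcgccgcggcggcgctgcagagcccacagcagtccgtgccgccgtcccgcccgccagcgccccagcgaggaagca
CXCL2: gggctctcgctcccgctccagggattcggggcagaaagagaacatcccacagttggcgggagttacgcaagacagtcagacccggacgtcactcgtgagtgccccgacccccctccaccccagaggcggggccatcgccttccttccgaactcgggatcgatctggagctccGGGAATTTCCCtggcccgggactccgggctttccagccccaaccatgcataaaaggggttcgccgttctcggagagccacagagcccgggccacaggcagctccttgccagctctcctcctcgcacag
The motif occurred in 1.61% of all promoters and in 27 of 441 panel genes (6.12%). Among genes lower after PNPase knockdown it was present for 7 of 83 (8.43%), which were CXCL1, CXCL2, IFIH1, NFKB1, NFKB2, NFKBIA and TOLLIP. Of the 38 higher genes it was present for PTPN2 alone (2.63%).

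NFKBIA had values of 827 and 519 against 903 and 1682. The groups did not overlap, and SUV3 1727 was the highest sample. The difference was -0.99 ± 0.39. NFKB1, the subunit p105, had 49 and 60 against 107 and 105, a difference of -1.03 ± 0.39, and here the 2 SUV3 samples were alike. NFKB2, the subunit p100, had 87 and 52 against 76 and 207, which overlapped as deposited and separated by 0.20 after scaling. Its difference was -0.97 ± 0.49, and -0.36 without SUV3 1727. The upstream kinases CHUK and IKBKB had differences of -0.39 ± 0.34 and -0.50 ± 0.33. RELA, the activating subunit, had the smallest of these differences, -0.16 ± 0.33.

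Among cytokines and chemokines, 7 of 18 members were lower and 3 higher after PNPase knockdown without overlap, near the 29.3% and 12.3% of all genes, and none passed the test. Without scaling 3 were lower, beside 60 of the 358 genes. CXCL2 had 39 and 37 against 60 and 182, a difference of -1.52 ± 0.53. CCL20, which attracts lymphocytes, had 17 and 8 against 16 and 66. In both, SUV3 1727 was well above the other 3 samples, and without it the differences were -0.84 for CXCL2 and -0.61 for CCL20, from -1.52 and -1.49. The higher members were CCL3, MIF and TGFB1. IL8, a neutrophil chemokine, overlapped widely, with 2474 and 2414 against 1355 and 10431.

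**Figure D2:**
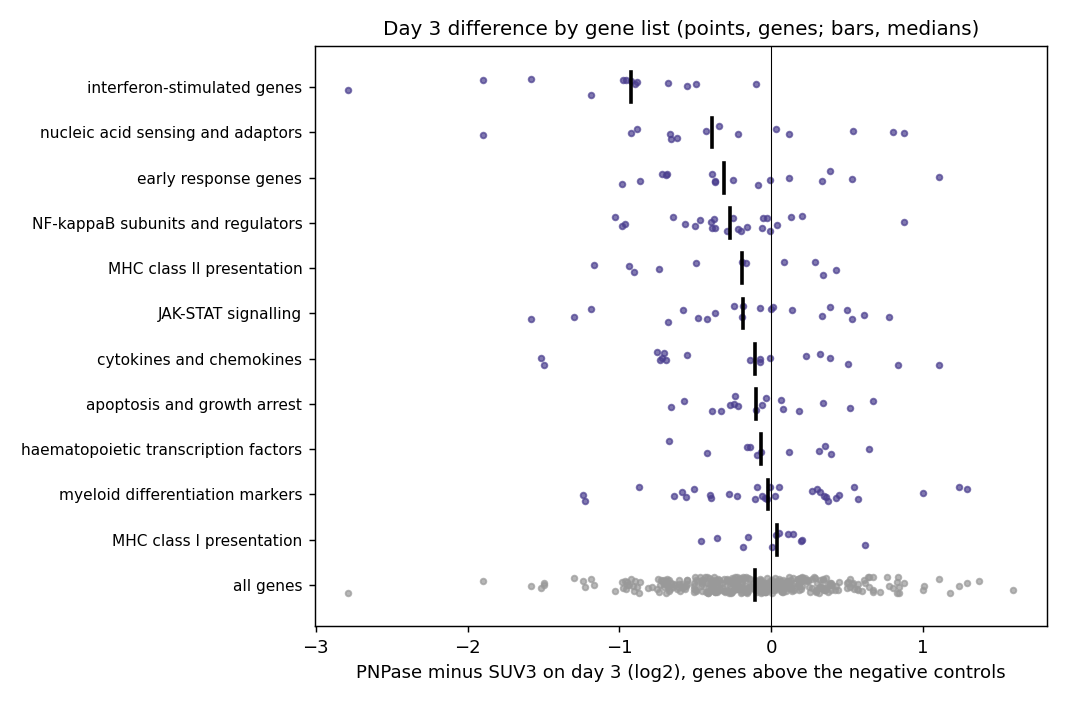
PNPase minus SUV3 difference on day 3 (log2, housekeeping scaled) for genes above the negative controls in each gene list, with a point for each gene and a black bar at the median; the bottom line holds all 358 genes. The interferon-stimulated list has the lowest median (-0.93), and the medians of the other lists lie between -0.39 and 0.04.

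Receptors and surface proteins of myeloid cells also held large differences. PTAFR, the receptor for platelet-activating factor, had 42 and 22 against 77 and 89, and CLEC5A, a myeloid lectin, had 217 and 122 against 373 and 352. IL6ST, the gp130 chain shared by receptors of the IL-6 family, had 56 and 45 against 68 and 206. All 3 were lower in both PNPase samples, with differences of -1.50 ± 0.36, -1.23 ± 0.36 and -1.30 ± 0.52. The IL6ST difference was -0.62 without SUV3 1727. In the myeloid marker list 8 of 32 members were lower and 4 higher without overlap, about the 29.3% and 12.3% of all genes, and none passed the test. Its median was -0.02, or 0.05 without scaling, -0.34 with positive control scaling and 0.11 with median ratio scaling. The 358 genes had medians of -0.11, -0.03, -0.42 and 0.02 in that order. S100A8 and S100A9, the subunits of calprotectin, overlapped, with 6718 and 1254 against 1062 and 4710 for S100A8, and 11674 and 2991 against 1538 and 12429 for S100A9.

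Among genes higher after PNPase knockdown, CD48 had the largest difference and CCND3 the widest gap. CD48, an adhesion protein of blood cells, had 83 and 22 against 14 and 12. Its PNPase 1717 value was closer to the SUV3 values than to PNPase 545, and the SUV3 values were near the negative control limit of 11.4. The difference was 1.59 ± 0.56, or 3.02-fold, and 0.85 without PNPase 545. CCND3, the D-type cyclin that drives cells out of G1, had 2358 and 1474 against 777 and 604. Both PNPase samples were clearly above both SUV3 samples, with a difference of 1.37 ± 0.38, or 2.58-fold.

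ITGB2, the shared chain of the leukocyte integrins, had 1812 and 795 against 395 and 548, a difference of 1.29 ± 0.41. FCER1G, the signalling chain of several Fc receptors, had 265 and 132 against 79 and 71, a difference of 1.24 ± 0.39. Neither group overlapped in these genes, and PNPase 545 was the highest sample in both. TGFBI, a secreted matrix protein, had 199 and 149 against 36 and 143, so that SUV3 1727 was near the PNPase values, and the difference of 1.18 ± 0.61 was 0.31 without SUV3 1595. IL4R, the interleukin 4 receptor chain, had 97 and 81 against 45 and 53, and NOTCH1, a receptor of cell fate decisions, had 150 and 142 against 92 and 85. ARG1, an enzyme of arginine breakdown, had 160 and 44 against 37 and 42, and its log2 difference was 0.28 without PNPase 545 and 1.72 without PNPase 1717.

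Under all 4 scalings, 47 genes were lower and 6 were higher after PNPase knockdown without overlap. The 6 were CD48, CCND3, FCER1G, CCL3, IL4R and NOTCH1. Of the genes described above, the 47 included MX1, IRF7, STAT2, IFI35, BST2, IFITM1, IFI16, HLA-DRA, HLA-DPA1, HLA-DRB3, NFKB1, NFKBIA, CXCL2, PTAFR, IL6ST and CLEC5A. They did not include IFIH1, IRF1, TMEM173, NFKB2, CHUK, RELA, CXCL1, CCL20 or PSMB7. The split of higher to lower genes moved with scaling, from 44 and 105 to 54 and 60 without scaling, 8 and 149 with positive control scaling, and 69 and 75 with median ratio scaling.

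The samples of days 4 to 6 did not choose these genes, although they come from the same replicates. Deviations of the same replicate correlated between days, by 0.42 to 0.84 for PNPase and 0.62 to 0.86 for SUV3. Counts of genes that kept their direction, or stayed apart on all 4 days, are therefore a description. No share over all 358 genes was taken for those counts. Of the 105 lower genes, 80 were again lower on day 4, 95 on day 5 and 91 on day 6, and 51, 48 and 56 did so without overlap. The share of all 358 genes lower without overlap was 24.0% on day 4, 22.9% on day 5 and 27.1% on day 6. On all 3 later days 75 of the 105 had the same direction, and 35 were without overlap on all 4 days. The 35 included MX1, IRF7, STAT2, IFI16, IFIH1, TBK1, HLA-DRA, HLA-DPA1, HLA-DRB3, NFKB1, NFKBIA and CXCL2. BST2, IFI35 and IFITM1 were not among them.

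Of the 44 higher genes, 37, 33 and 33 were again higher on days 4, 5 and 6, and 24, 14 and 20 of them without overlap. The share of all 358 genes higher without overlap was 16.5%, 7.82% and 12.6% on those days. The 10 genes higher without overlap on all 4 days were CD48, CCND3, TGFB1, IL4R, NOTCH1, MIF, LILRB1, TUBB, OAZ1 and NCAM1. The opposite direction on all 3 later days was seen for 4 genes higher on day 3, namely ATM, CCL3, FKBP5 and KLRG1, and for 7 lower genes, ABCF1, GPI, HRAS and ITGA6 among them.

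MX1 kept differences of -1.60, -1.98 and -1.33 on days 4, 5 and 6, beside -2.79 on day 3. IRF7 had -1.05, -1.26 and -0.92 on those days, beside -1.90. HLA-DRA went the other way, from -1.17 on day 3 to -1.69, -2.22 and -2.25. CCND3 stayed near its day 3 value of 1.37, at 1.28, 1.20 and 1.06. As deposited, MX1 overlapped on day 5 (72 and 44 against 65 and 477) and on day 6 (60 and 60 against 50 and 260). After scaling, SUV3 1595 had MX1 at 6.06 and 5.68 on days 5 and 6, near PNPase 545 at 5.88 and 5.53. SUV3 1727 was far higher, at 8.93 and 7.93. IRF7 also overlapped as deposited on day 6, with 27 and 34 against 29 and 66.

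**Figure D3:**
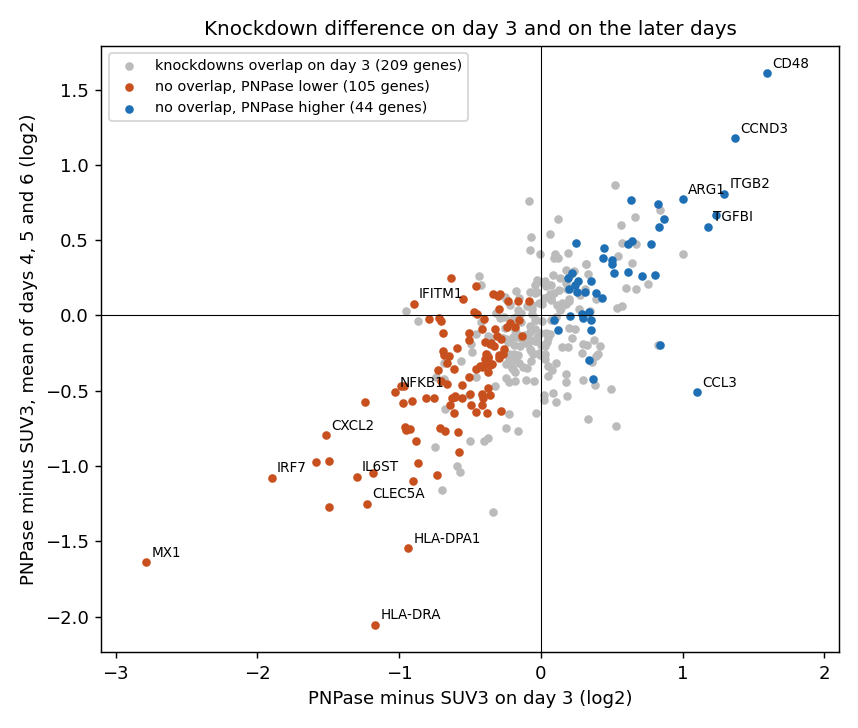
PNPase minus SUV3 difference on day 3 (horizontal axis, log2) against the mean of the differences on days 4, 5 and 6 (vertical axis, log2) for the 358 genes above the negative controls, coloured by overlap on day 3. MX1, IRF7 and HLA-DRA lie far below 0 on both axes, CD48 and CCND3 far above 0 on both, and CCL3 is higher on day 3 and lower later.

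Whether a day 3 difference itself departed from the later days was tested as the difference between the knockdowns in day 3 minus the mean of days 4 to 6. No gene passed (limma, Benjamini-Hochberg over 594 genes, 0.0% called), and 19 genes (3.2%) had an unadjusted p under 0.05. The smallest adjusted p in limma was 0.997. The difference of this day 3 excess, PNPase minus SUV3, was -1.15 ± 0.45 for MX1 and 1.61 ± 0.67 for CCL3, both with adjusted p of 0.997 in limma. Without scaling and with positive control scaling, 2 genes passed, both below the negative control limit on day 3.

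Both knockdowns shared high values of a set of genes on day 3. Control cells were not analysed here. An excess shared by both knockdowns therefore cannot be told apart from a change over time in any culture. Of the 358 genes, 59 (16.5%) were higher on day 3 than on each later day in all 4 replicates, and 24 (6.7%) were lower. The test across replicates, day 3 minus the mean of days 4 to 6, passed for 26 genes that were higher and 4 that were lower over all 594 genes (4.38% and 0.673%, together 5.05%, limma, Benjamini-Hochberg), and 142 genes had an unadjusted p under 0.05. Of the 59 genes, 19 passed. The test rests on 4 replicates, and a sign-flip test of 1 gene cannot go below an exact p of 0.125. The housekeeping factors were lower on day 3, with a mean log2 of -0.35 ± 0.20 (SD, n = 4) beside 0.12 ± 0.26 (SD, n = 12) on the later days, while the positive control factors were alike at 0.01 and -0.00. The median day 3 excess of all 594 genes was 0.19 with housekeeping scaling, -0.25 without scaling, -0.26 with positive control scaling and 0.04 with median ratio scaling. The part of the housekeeping genes in the excess was not tested.

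Under all 4 scalings, 14 genes were higher on day 3 in all 4 replicates: CDKN1A, CCL3, FCER1A, CCL4, PTGS2, PRDM1, FAS, IL21R, TNFRSF10C, IL8, TRAF4, CD70, PTGER4 and NFIL3. Under all 4 scalings 10 genes passed the test as higher, namely CDKN1A, CCL3, LIF, PTGS2, PRDM1, FAS, IL21R, TNFRSF10C, TRAF4 and PRF1. Leaving out 1 replicate changed the count of 30 calls to between 0 and 14. Without SUV3 1595 no gene passed in limma, where 119 genes had an unadjusted p under 0.05, without PNPase 1717 CDKN1A alone did, and without PNPase 545 CDKN1A and PTGS2 did.

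CDKN1A, which encodes the cell cycle inhibitor p21, showed the largest excess. Its deposited values on day 3 were 4721 and 3599 after PNPase knockdown and 2481 and 4781 after SUV3 knockdown. On days 4 to 6 the 12 values ran from 113 over a median of 321 to 524, so that day 3 and the later days did not overlap. The day 3 excess was 4.10, 5.11, 4.01 and 3.76 in PNPase 545, PNPase 1717, SUV3 1595 and SUV3 1727. The mean was 4.24 ± 0.25 (moderated SE, n = 4 replicates), or 18.9-fold, with an adjusted p of 0.00404 in limma. Without SUV3 1595 the adjusted p in limma was 0.0616, with an excess of 4.32. The knockdowns overlapped on day 3, with a difference of 0.18 ± 0.39.

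Other genes of cell death were also higher on day 3. FAS, a death receptor, had 56, 45, 75 and 68 on day 3 in that order, against 14 to 41 later, and an excess of 1.77 ± 0.15 (adjusted p = 0.0093 in limma). TNFRSF10C, a decoy receptor for the death ligand TRAIL, had an excess of 1.66 ± 0.26 (adjusted p = 0.0376 in limma). BAX, which opens the outer mitochondrial membrane in apoptosis, had 2544, 2304, 2271 and 2099 on day 3, within the later deposited range of 1447 to 2717, and an excess of 0.76 ± 0.13 (adjusted p = 0.042 in limma). The BAX excess was 0.30 without scaling and 0.28 with positive control scaling, and did not pass under either. Of the 17 measured members of the apoptosis and growth arrest list, 7 were higher on day 3 in all replicates and 4 lower, BCL2, CASP2 and FADD among them, and 4 passed the test, all as higher. Over all 358 genes 16.5% were higher and 6.7% lower in all replicates, and 4.38% of all 594 genes passed as higher. The list's median excess was 0.13 beside 0.12 for all 358 genes, and it turned negative under the other 3 scalings (-0.32, -0.34 and -0.03). The median of the 358 genes turned negative there as well (-0.34, -0.35 and -0.04).

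The early response genes, which are transcribed within a short time of a stimulus, had 9 of 16 members higher on day 3 in all replicates, against 16.5% of all genes. Of the 16, 4 passed the test as higher, beside 21 of the 358 genes. The median excess was 1.06, beside 0.12 for the 358 genes. It was 0.63, 0.61 and 0.91 without scaling, with positive control scaling and with median ratio scaling. The 358 genes had medians of -0.34, -0.35 and -0.04 there. CCL3, a chemokine of macrophages, had 106, 159, 55 and 59 on day 3 against 10 to 25 later. All 4 samples were above every later value, and the excess was 2.96 ± 0.46, or 7.76-fold (adjusted p = 0.0376 in limma). PTGS2, the inducible cyclooxygenase, had 83, 90, 82 and 214 against 16 to 74 later, with an excess of 1.89 ± 0.17 (adjusted p = 0.0093 in limma). IL8 had an excess of 1.58 ± 0.29 (adjusted p = 0.0467 in limma), and its deposited later values reached 4012, within the day 3 range. CCL4, NFKBIZ and SOCS3 had excesses of 2.24 ± 0.49, 1.83 ± 0.43 and 1.40 ± 0.33 that did not pass.

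**Figure D4:**
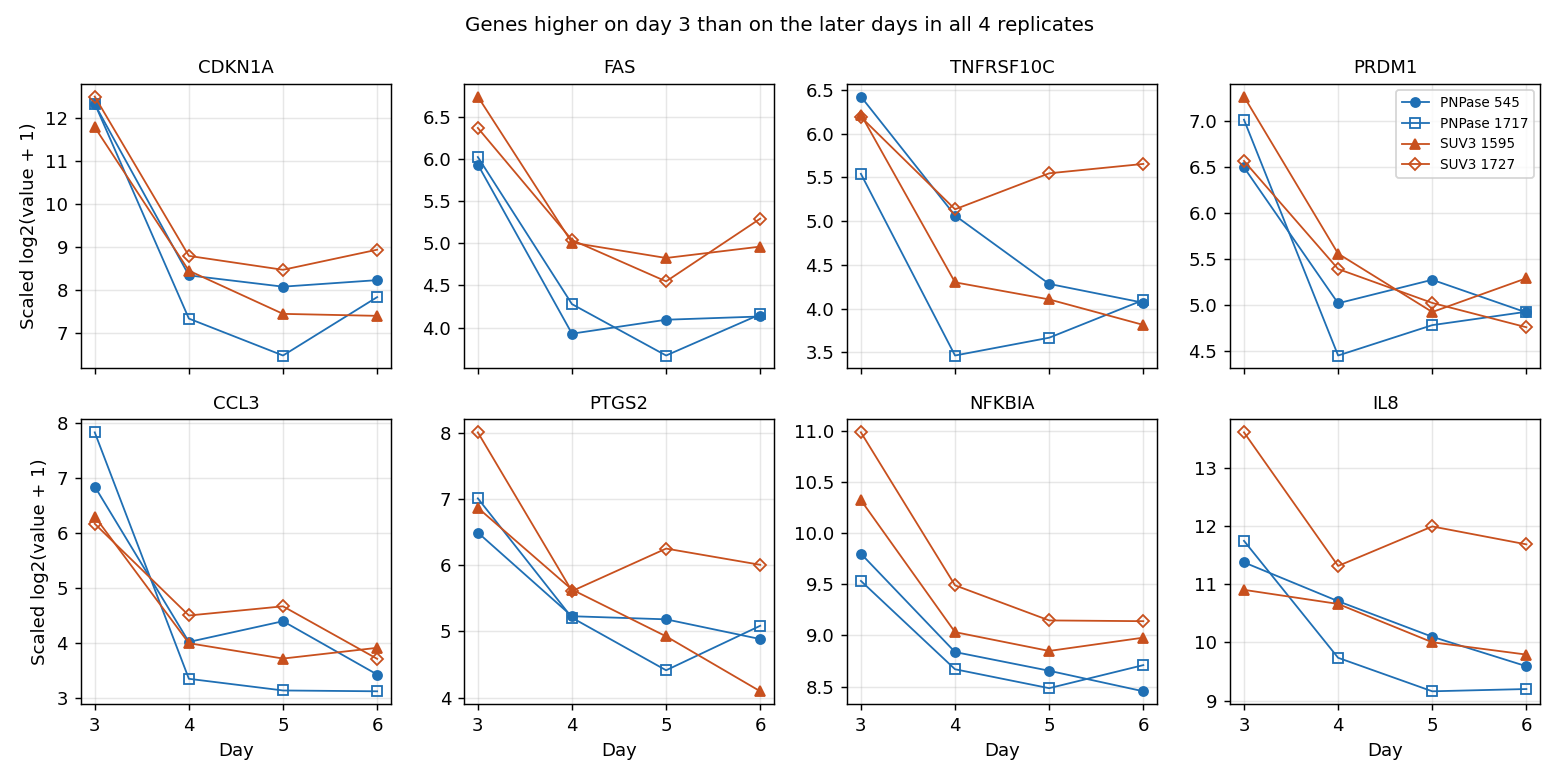
Housekeeping-scaled log2(value + 1) by day for 8 genes that were higher on day 3 than on each later day in all 4 replicates, with a line for each replicate, blue for PNPase and red for SUV3. The knockdowns overlap on day 3 for CDKN1A, whereas NFKBIA is lower in both PNPase replicates.

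Of the 59 shared genes, 16 were also lower and 8 also higher after PNPase knockdown on day 3, shares close to the 29.3% and 12.3% of all 358 genes. NFKBIA was in both sets, with a shared excess of 1.29 ± 0.17 (adjusted p = 0.0296 in limma) and excesses of 1.15, 0.91, 1.37 and 1.72. The shared NFKBIA excess was 0.83 without scaling and 0.81 with positive control scaling, and did not pass under either. Like NFKBIA, CXCL2, IFIH1, CCL20, FAS, LIF and TNFSF4 were lower after PNPase knockdown and high on day 3 under housekeeping scaling. Of these and NFKBIA, FAS alone was higher on day 3 in all 4 replicates under all 4 scalings. As deposited, IFIH1 in PNPase 1717 had 31 on day 3 and 48, 34 and 49 later. CXCL2 in PNPase 545 had 39 on day 3 and 38, 48 and 42 later. CCL3, PTGER4 and TRAF4 were higher after PNPase knockdown, but the TRAF4 difference of 0.20 became -0.12 with positive control scaling. The kappaB motif was present for 7 of 46 shared genes with a promoter in the table (15.2%), and the interferon-stimulated response element for 6 (13.0%).

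PRDM1, the repressor Blimp-1, had 83, 90, 108 and 78 on day 3 against 25 to 47 later, an excess of 1.81 ± 0.19 (adjusted p = 0.0151 in limma). TRAF4, an adaptor of the TNF receptor family, had 278, 258, 203 and 241 against 86 to 198, an excess of 1.43 ± 0.13 (adjusted p = 0.0093 in limma). CD83, a surface protein of activated cells, had an excess of 1.12 ± 0.13 (adjusted p = 0.0165 in limma). The CD83 excess was 0.66 without scaling and 0.65 with positive control scaling, and did not pass under either. FCER1A, the IgE-binding chain of its receptor, had 45, 89, 99 and 11, and SUV3 1727 stood far below the other samples on day 3. Of the 26 higher calls, 5 were of genes below the negative control limit.

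CCR2, the monocyte chemokine receptor, had 151, 141, 129 and 95 on day 3 against 235 to 730 later, a difference of -1.27 ± 0.15 (adjusted p = 0.0165 in limma). IL1B, the inflammatory cytokine, differed by -1.09 ± 0.16, and IKZF1, the lymphoid transcription factor Ikaros, by -0.83 ± 0.15. CD3EAP, a subunit of RNA polymerase I, differed by -0.81 ± 0.13. These 4 passed limma's test under all 4 scalings, with adjusted p of 0.0347, 0.0467 and 0.0376 for the last 3 under housekeeping scaling. None of the 4 passed when any 1 replicate was left out. IL1B and IKZF1 did not pass against day 4 alone, against day 6 alone or without the replicate block. CD3EAP did not pass against day 4 alone. All 24 genes lower on day 3 in every replicate were so under all 4 scalings, and the count was 84 without scaling.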

How the data were processed

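Per the design text, OCI-AML2 cells were sampled on days 3 to 6 after knockdown of PNPase or SUV3, with 2 biological replicates each. The deposited values are a score of whole numbers, and no label says how the authors made them. Of the deposited tables, 1 carries RUV correction in its name, a removal of unwanted variation, and both deposited tables held the same values for all 594 genes. Per the labels' protocols, RNA was isolated with a commercial kit and barcodes were counted directly. The labels also name a cDNA step, whose place is not given.

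Each sample was divided by the geometric mean of 15 housekeeping genes, centred over samples, and log2(value + 1) was taken. All 594 genes were tested by lmFit and eBayes of limma 3.58.1 under R 4.3.3, with Benjamini-Hochberg adjustment at 0.05 and 2 residual degrees of freedom on day 3 and 3 for differences within replicates. Those differences use the replicate number as a block, since the design text says that each replicate was sampled on every day. Deviations of the same number on different days correlated by 0.42 to 0.84 for PNPase and 0.62 to 0.86 for SUV3 over genes. The scripts were tested on simulated data. Named genes are those that passed a test, the 15 largest non-overlapping differences on each side, the largest shared day 3 excesses and list members by a rule. BST2, IFITM1, CD70, HLA-DPB1, RELA, TBK1, TLR3, TMEM173, CHUK, IKBKB and CXCL1, and others outside that rule such as IRF1, SOCS1 and CD74's protease CTSS, were chosen for mention once their values were known. Some genes are not reported here. The members and lists were chosen with earlier results of these data known. Of the symbols, 565 were current in RefSeq, 12 were older synonyms and 17 had no match. Alternatives were other scalings, pseudocount 5, a filter to genes above the negative controls, subtraction of the negative controls, a shared spread, single later days and each replicate left out.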

Additional observations from a re-analysis of the deposited data

How the results depend on the processing

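Of the 57 day 3 differences between the knockdowns followed by name, all kept their direction and their side of the threshold when scaling, pseudocount, background, filter or spread was changed, except TRAF4, which became -0.12 with positive control scaling. Of the shared day 3 excesses, that of TBK1 turned to -0.0473 without scaling and -0.0628 with positive control scaling. The count of genes that passed for PNPase against SUV3 knockdown ran from 0 to 2 when 1 replicate was left out, a fit in which the lone sample is assumed to vary like the other knockdown: 1 gene passed without PNPase 1717, and HLA-DPB1 and MX1 without PNPase 545. The first of these and HLA-DPB1 lie below the negative control limit. The 30 genes that passed for day 3 against the later days became 11 against day 4 alone, 68 over genes above the negative controls alone, 18 with the negative controls subtracted, 52 without scaling, 49 with positive control scaling and 19 with median ratio scaling, and 0 to 14 with 1 replicate left out. Without the replicate block, as if the samples were not paired by replicate, 51 genes passed there and 0 for the difference between the knockdowns in the day 3 excess, which had 2 both without scaling and with positive control scaling. The 44 non-overlapping genes higher after PNPase knockdown became 8 with positive control scaling, 69 with median ratio scaling and 82 over all genes, and the 105 lower genes became 60 without scaling. The 30 that stayed higher on all later days became 7 and 52 under positive control and median ratio scaling, and the 75 that stayed lower became 25 without scaling. The 59 genes shared higher on day 3 became 15, 16 and 34, and the 24 shared lower became 84, 70 and 46, without scaling, with positive control and with median ratio scaling. Those shared counts by scaling, median ratio scaling for the later days, and housekeeping scaling without POLR1B, were chosen after seeing the data. The causes of these shifts were not tested. Signal near the negative probes and 2 samples per knockdown limit what could be detected.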
